A study of Mus musculus with 24 samples.

Results

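MS03 cells treated with the focal adhesion kinase (FAK) inhibitor VS-4718 at 1 μM for 24 hours were compared with MS03 cells treated with the solvent, dimethyl sulfoxide (DMSO), for the same time. The comparison was chosen by treatment label and holds 6 of the 24 libraries of the series, 3 per treatment, and every gene of the count table. MS03 is a murine *Nf2*-/- Schwann cell line, and both groups carry this genotype and were grown in DMEM with 10% serum. The line is a single line, so the 3 biological replicates of a treatment are cultures of it and *P* values measure the spread between cultures. RNA of frozen pellets was selected by poly(A) and sequenced by a commercial service. The same 24-hour experiment also held defactinib, GSK2256098 and ifebemtinib (IN10018), other FAK kinase inhibitors, each at 1 μM with 3 libraries, and VS-4718 was compared with each of them directly.

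FAK, encoded by *Ptk2*, is a cytoplasmic tyrosine kinase that is recruited to integrin adhesions, where it works with SRC, paxillin and p130CAS to relay attachment and growth factor signals. NF2-deficient Schwann cells form schwannomas, and Schwann cells move between an immature or repair state, marked by p75 neurotrophin receptor and JUN, and a myelinating state that depends on SOX10 and on neuregulin signaling through ERBB2 and ERBB3. ATF4 is the transcription factor of the integrated stress response. It drives genes for amino acid import, amino acid synthesis and transfer RNA charging when amino acids are short or when the endoplasmic reticulum is stressed.

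Total counts were 22952048, 27449516 and 25126532 with DMSO and 26550878, 23095303 and 26427778 with VS-4718. Levels are given as CPM, the read count relative to the TMM-scaled total of the library, and log2 fold changes are of VS-4718 relative to DMSO with their standard error (SE). Changes given as a number alone are on this log2 scale. DMSO replicate 2 stood apart in 22 genes, mostly small noncoding RNAs, that had at least 0.5 CPM there and at least 5 times the level of any other of the 6 libraries, and the other 5 libraries had 0 such genes each. Of these 22 genes, 15 passed the threshold, and none is named as a result below. *Ptk2* was at 92.9, 95.4 and 97.7 CPM with DMSO and 83.5, 84.1 and 85.3 CPM with VS-4718 (log2 fold change −0.18 ± 0.0347, edgeR adjusted *P* = 6.53e-05), a small decrease of the target's own mRNA. Its libraries did not overlap between the treatments, which held for 7645 genes (47.6% of all genes tested). Lack of overlap by itself was therefore common. *Nf2* mRNA was at 184, 179 and 178 CPM and 193, 185 and 187 CPM and did not pass the threshold (edgeR adjusted *P* = 0.119), except with scaling by library totals alone (edgeR adjusted *P* = 0.00989). Counts per gene do not show whether exons of *Nf2* are missing, so the genotype was not checked.

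The cells carried a Schwann lineage profile with gaps. The summed level of 8 lineage markers ranged from 38.1 to 40.1 CPM with DMSO and from 92.8 to 104.5 CPM with VS-4718, carried by *Sox10*, *Ngfr* and *Erbb3*, whereas *S100b* and *Gfap* were near 0. Of 10 macrophage and leukocyte markers, 6 had at most 3 counts in each of the 6 libraries (*Ptprc*, *Adgre1*, *C1qa*, *C1qb*, *Itgam* and *Tyrobp*), and the summed level of the list was 3.71 to 4.20 CPM with DMSO and 4.98 to 6.14 CPM with VS-4718. Endothelial markers summed to 0.659 to 0.902 CPM with DMSO and 0.457 to 1.00 CPM with VS-4718, and neuronal markers to 0.362 to 0.451 and 0.218 to 0.418 CPM. Fibroblast and perineurial markers summed to 460.5 to 477 CPM with DMSO and 358 to 382.5 CPM with VS-4718, most of it *Slc2a1*, a glucose transporter gene that is also in the hypoxia list, whereas *Dcn*, *Lum*, *Thy1* and *Fap* had at most 3 counts in each library.

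Of the 16070 genes tested, 39.2% differed between VS-4718 and DMSO (adjusted *P* under 0.05, quasi-likelihood test of edgeR). Of these, 3273 genes (20.4% of those tested) were higher and 3030 genes (18.9%) were lower with VS-4718, and with scaling by library totals alone the split was 4015 higher and 2394 lower. Most of the changes were small. The median absolute log2 fold change of the called genes was 0.26, and 151 genes rose and 180 genes fell by at least 2-fold. Among annotated genes of at least 5 CPM with no overlap, the 12 largest decreases included stress response and hypoxia genes, and the 12 largest increases included genes of Schwann cell identity. Lack of overlap was a condition for naming these genes and is no separate result for them.

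**Figure D1:**
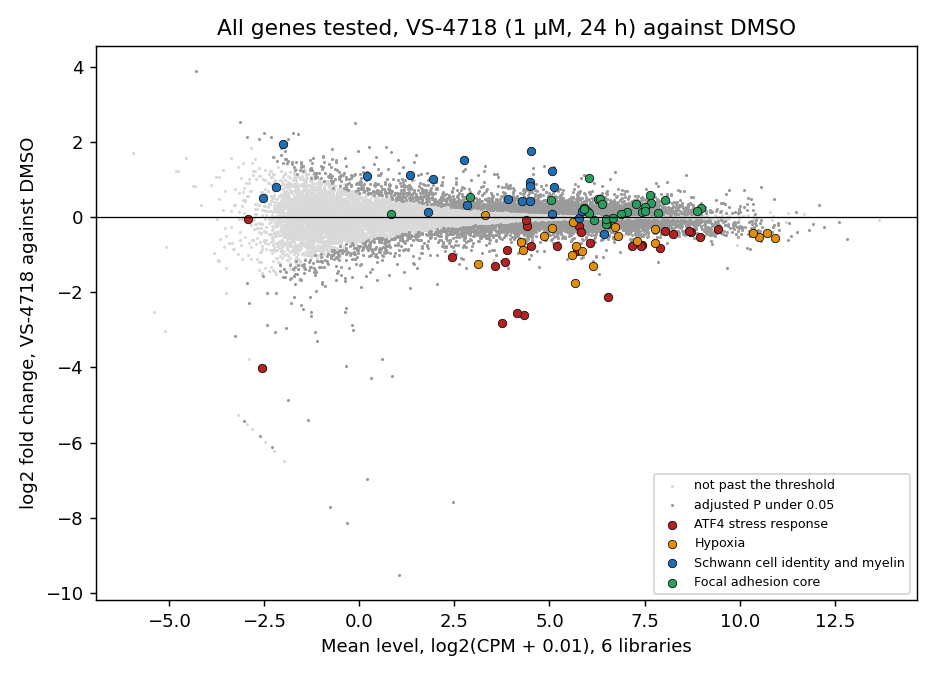
Each point is 1 of the 16070 genes tested, with its mean level over the 6 libraries on a log2 axis (CPM plus 0.01) and its log2 fold change for VS-4718 against DMSO on the vertical axis. Members of 4 gene lists are colored, and the ATF4 and hypoxia genes lie below 0 except 1 hypoxia gene (*Pfkfb4*), whereas most Schwann cell and focal adhesion genes lie above 0.

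Genes were grouped in 24 lists, chosen with earlier results of these data known, and 555 of their 633 genes were tested. Against the background of 20.4% higher and 18.9% lower, the lists with the greatest share of lower genes were the ATF4 stress response (26 of 28), hypoxia (20 of 22) and cholesterol synthesis (18 of 24), and those with the greatest share of higher genes were the focal adhesion core (22 of 27) and Schwann cell identity and myelin (15 of 21). Lists such as p53 targets (5 higher and 5 lower of 22) and cell death (5 higher and 5 lower of 20) were close to the background in both directions. The number higher in the cell death list was 3 without DMSO replicate 2 or without DMSO replicate 3 and 7 with library totals alone.

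**Figure D2:**
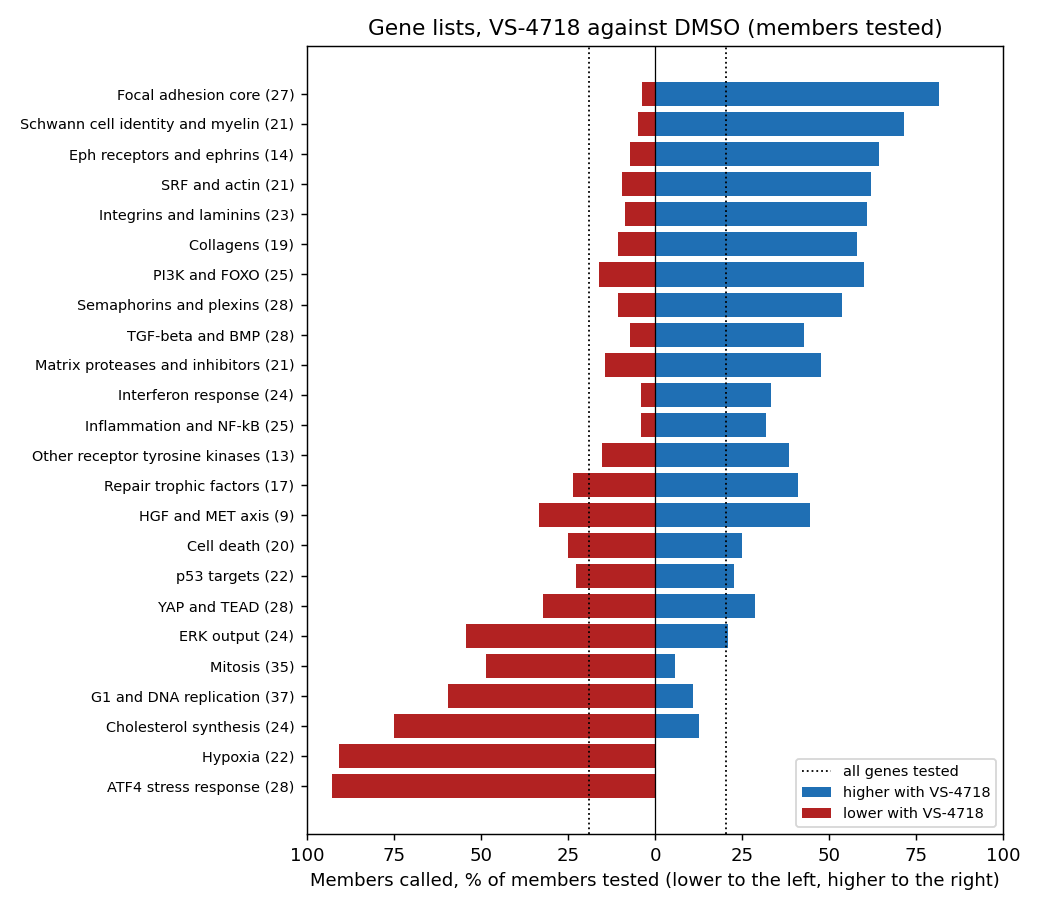
Bars give the share of tested members of each gene list that were called higher (right, blue) or lower (left, red) with VS-4718 than with DMSO, in percent, and dotted lines give the shares over all genes tested (20.4% and 18.9%). The ATF4 and hypoxia lists have no member called higher, and the focal adhesion list has 1 member called lower (*Ptk2*).

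In VS-4718-treated cells the stress response genes fell together. Of 28 ATF4 pathway genes tested, 26 were lower, 0 were higher and the median log2 fold change was −0.76, against 0.0048 over all genes tested, and the number lower was 25 or 26 under every alternative processing tried except a 2-fold minimum. *Chac1*, which encodes an enzyme that degrades glutathione, was at 23.3, 25.1 and 21.9 CPM in the DMSO libraries and 3.77, 3.23 and 2.89 CPM in the VS-4718 libraries (log2 fold change −2.83 ± 0.0935 SE, edgeR adjusted *P* = 8.14e-25). Every VS-4718 library lay far below every DMSO library. *Trib3*, a pseudokinase induced by this response, went from 37.3, 33.5 and 32.0 CPM to 5.03, 6.38 and 5.51 CPM (−2.61 ± 0.0736 SE, edgeR adjusted *P* = 6.66e-27). *Slc7a11*, the cystine and glutamate exchanger, went from 31.3, 29.8 and 29.7 CPM to 4.95, 5.24 and 5.39 CPM (−2.54 ± 0.0709 SE, edgeR adjusted *P* = 5.89e-27). In both genes the replicates of a treatment were close together and the treatments did not overlap. *Ddit4*, whose product REDD1 restrains mTORC1, had 159.9, 151 and 144 CPM with DMSO and 34.3, 37.2 and 33.7 CPM with VS-4718 (−2.11 ± 0.0493 SE, edgeR adjusted *P* = 2.39e-29), again with no overlap. These were the 4 largest decreases among annotated genes with a mean of at least 5 CPM and no overlap.

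The mRNA of *Atf4* itself fell from 309.8, 303 and 297 CPM to 173, 169 and 172 CPM (−0.82 ± 0.0320 SE, edgeR adjusted *P* = 1.47e-22). The stress transcription factor *Ddit3* (CHOP) went from 21.0, 18.8 and 19.2 CPM to 8.50, 9.78 and 7.56 CPM (−1.20 ± 0.0787 SE). Both sets of libraries were apart. The chromatin-associated stress protein gene *Nupr1* had a log2 fold change of −1.29, *Atf3* one of −1.07 and the mTORC1 regulator *Sesn2* one of −0.78. Genes of serine and one-carbon metabolism were lower, with log2 fold changes of −0.90 for *Psph*, −0.73 for *Mthfd2*, −0.53 for *Psat1*, −0.39 for *Shmt2* and −0.30 for *Phgdh*. *Asns*, asparagine synthetase, changed by −0.76, and the amino acid transporter genes *Slc7a1*, *Slc3a2* and *Slc7a5* by −0.45, −0.38 and −0.38. *Fgf21*, a secreted stress hormone, had 22 counts over the DMSO libraries and 1 count over the VS-4718 libraries, a ratio of 0.044 with an exact 95% Poisson interval of 0.00106 to 0.272 that covers counting error only. The 2 members that did not pass were *Gdf15*, which was at most at 0.191 CPM, and *Cebpb*, with 16.0, 22.1 and 26.2 CPM and 25.5, 18.9 and 16.7 CPM. Outside the list, *Aldh1l2*, a mitochondrial folate enzyme gene, went from 119, 118 and 112 CPM to 38.7, 43.3 and 40.9 CPM (−1.51 ± 0.0474 SE, edgeR adjusted *P* = 1.81e-25), and 14.1% of its exon bases are shared with a gene on the opposite strand.

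The sequence upstream of 3 of the 12 largest decreases, *Chac1*, *Slc7a11* and *Herpud1*, a gene of endoplasmic reticulum protein degradation, is shown because they carry, within 250 bases before the RefSeq start, the element TGATGNAA, a composite site bound by ATF4 with C/EBP partners. Sequences are from RefSeq on GRCm38.p6, read 5′ to 3′ on the gene's own strand, with matches on either strand in capitals. The motif was picked after the values were seen.
*Chac1* (chr2:119350992-119351241, plus strand; the element begins 193 bases before the start): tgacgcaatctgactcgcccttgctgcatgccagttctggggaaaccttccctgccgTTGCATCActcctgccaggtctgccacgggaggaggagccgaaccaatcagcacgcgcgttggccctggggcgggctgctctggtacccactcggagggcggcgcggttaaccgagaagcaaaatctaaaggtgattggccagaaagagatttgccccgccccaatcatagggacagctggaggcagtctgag
*Slc7a11* (chr3:50443614-50443863, minus strand; elements 66 and 47 bases before the start): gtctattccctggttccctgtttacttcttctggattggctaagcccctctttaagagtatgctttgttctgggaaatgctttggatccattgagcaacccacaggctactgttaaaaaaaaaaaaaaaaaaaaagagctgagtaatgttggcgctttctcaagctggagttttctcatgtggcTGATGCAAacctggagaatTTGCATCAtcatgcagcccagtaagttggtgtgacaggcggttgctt
*Herpud1* (chr8:94386179-94386428, plus strand; the element begins 112 bases before the start): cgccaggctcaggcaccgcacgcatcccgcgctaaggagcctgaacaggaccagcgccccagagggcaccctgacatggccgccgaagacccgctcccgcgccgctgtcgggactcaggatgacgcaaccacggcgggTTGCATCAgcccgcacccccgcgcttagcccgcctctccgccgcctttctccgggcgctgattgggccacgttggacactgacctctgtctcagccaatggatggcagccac
Of the 12 largest decreases, 8 genes had 1 window each, and 4 of the 8 windows (50%) held the element, those of *Chac1*, *Slc7a11*, *Herpud1* and *Nupr1*. In the ATF4 list 8 of 32 windows of 27 genes held it (25%), and it was in 1134 of 32851 RefSeq windows (3.45%). None of the 8 windows of the 12 largest increases that had one (6 genes) held it. The windows of *Trib3* and *Ddit4* did not hold these letters. Since the list was drawn up from genes known for regulation by ATF4, these shares describe the windows and are no test. The transcribed loci are *Chac1* at chr2:119351229-119354381, *Trib3* at chr2:152337422-152344032, *Slc7a11* at chr3:49892526-50443614 and *Ddit4* at chr10:59949669-59951834 (GENCODE M21, GRCm38), none of which shares exon bases with another gene tested.

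**Figure D3:**
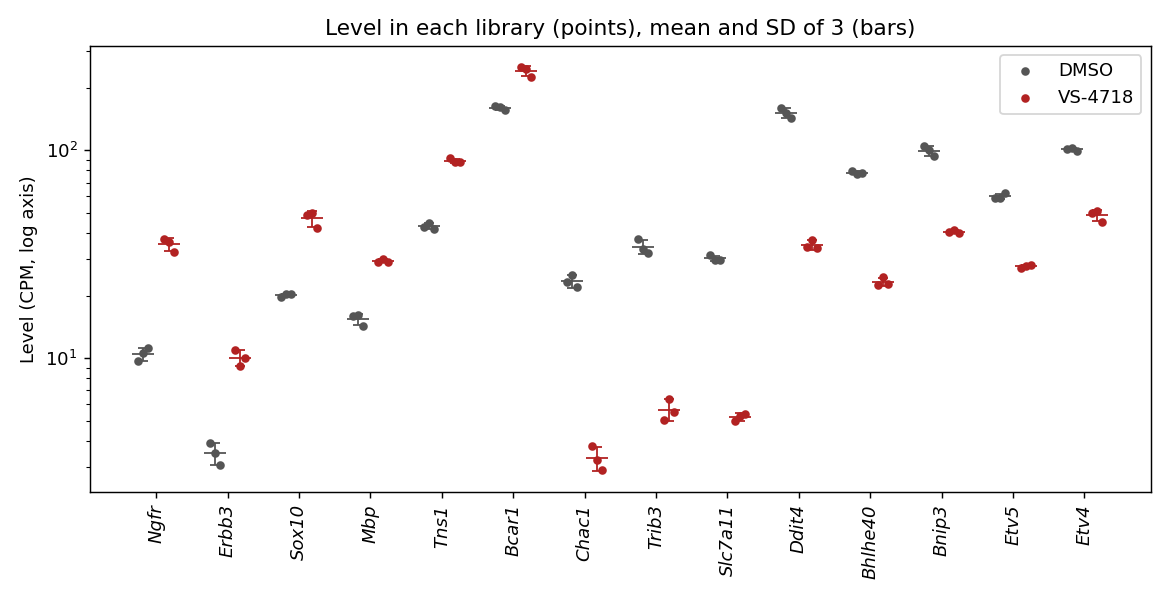
Levels of 14 genes in CPM on a log axis for each DMSO library (grey) and each VS-4718 library (red), with horizontal marks for the mean and error bars for the SD of 3 libraries. In each of the 14 genes the red and grey points do not overlap, with *Ngfr*, *Erbb3*, *Sox10*, *Mbp*, *Tns1* and *Bcar1* higher and the other 8 lower with VS-4718.

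Hypoxia genes were also lower. HIF target genes encode glucose transporters, glycolytic enzymes and regulators of mitochondrial turnover. Of 22 tested, 20 were lower with VS-4718 and 0 were higher, with a median log2 fold change of −0.55. *Bhlhe40*, a transcriptional repressor, went from 79.3, 76.9 and 78.0 CPM to 22.4, 24.5 and 22.8 CPM (−1.75 ± 0.0506 SE, edgeR adjusted *P* = 1.3e-26). *Bnip3*, a mitophagy receptor, went from 105, 100.2 and 93.9 CPM to 40.5, 41.3 and 40.0 CPM (−1.30 ± 0.0411 SE, edgeR adjusted *P* = 2.37e-25). The 2 treatments were fully apart in both genes. *Ankrd37* had a log2 fold change of −1.24, with 22.7% of its exon bases shared with a gene on the opposite strand. The glucose transporter genes *Slc2a3* and *Slc2a1* changed by −1.0 and −0.68, *Pdk1*, which limits pyruvate entry into mitochondria, by −0.90, and *Hk2*, *Ldha* and *Pgk1* of glycolysis by −0.64, −0.56 and −0.54. *Ldha* was at 1555 ± 58.7 CPM (SD, n = 3) with VS-4718 and 2293 ± 17.6 CPM with DMSO. The 2 members that did not pass were *Pfkfb4* (0.05, edgeR adjusted *P* = 0.729) and *Mxi1* (−0.12, edgeR adjusted *P* = 0.0672). *Vegfa*, counted here with repair factors, also fell, from 119, 114 and 118 CPM to 64.6, 61.9 and 63.6 CPM (−0.88 ± 0.0418 SE, edgeR adjusted *P* = 8.55e-20). Since these are bulk RNA samples, fewer cells in a state and less RNA per cell cannot be told apart.

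Schwann cell identity and myelin genes rose. Of 21 tested, 15 were higher and 1 was lower, with a median log2 fold change of 0.80. *Ngfr*, the p75 neurotrophin receptor, showed the largest increase among annotated genes with a mean of at least 5 CPM and no overlap, from 9.63, 10.5 and 11.1 CPM with DMSO to 37.5, 36.2 and 32.4 CPM with VS-4718 (1.76 ± 0.0678 SE, edgeR adjusted *P* = 1.11e-22). *Erbb3*, the neuregulin receptor, went from 3.89, 3.50 and 3.05 CPM to 10.9, 9.17 and 10.0 CPM (1.53 ± 0.108 SE, edgeR adjusted *P* = 1.08e-14). *Sox10*, the lineage transcription factor, went from 19.7, 20.3 and 20.3 CPM to 48.7, 50.1 and 42.2 CPM (1.22 ± 0.0662 SE, edgeR adjusted *P* = 4.82e-18). In all 3 genes the lowest VS-4718 library had more than 2 times the level of the highest DMSO library. The adhesion genes *Cdh19*, *L1cam* and *Cadm4* rose by 1.13, 1.01 and 0.84. Myelin genes rose too, *Mbp* from 15.9, 16.1 and 14.3 CPM to 29.2, 30.0 and 29.2 CPM (0.93 ± 0.0592 SE), *Cnp* by 0.81 and *Pmp22* by 0.50. *Ncam1* (−0.03, edgeR adjusted *P* = 0.68) did not pass. *Jun*, a driver of the repair state, was the 1 member that fell, from 102, 101 and 97.7 CPM to 77.9, 74.4 and 68.4 CPM (−0.45 ± 0.0418 SE, edgeR adjusted *P* = 2.13e-11). *Ngfr*, itself a gene of immature and repair Schwann cells, and *Jun* thus moved in opposite directions. Of 17 repair and trophic factor genes, 7 were higher (4 without VS-4718 replicate 1 and 9 with library totals alone) and 4 lower, with *Fgf7* (0.45) and *Gdnf* (0.38) among the former and *Nrg1* (−0.37) and *Pdgfa* (−0.24, with 26.1% of exon bases shared with another gene) among the latter.

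Genes of the adhesion structures to which FAK is recruited were higher. In the focal adhesion core list 22 of 27 genes rose and 1, *Ptk2*, fell, with a median log2 fold change of 0.21; without DMSO replicate 1, 2 fell. *Tns1*, a tensin that links integrins to actin, went from 43.0, 44.8 and 41.8 CPM to 91.4, 88.3 and 88.0 CPM (1.05 ± 0.0466 SE, edgeR adjusted *P* = 1.12e-20). *Bcar1*, which encodes the FAK partner p130CAS, went from 163, 161 and 157 CPM to 251, 245 and 226 CPM (0.59 ± 0.0390 SE, edgeR adjusted *P* = 2.2e-15). The libraries were apart in both. *Tgfb1i1* (HIC-5) rose by 0.53, zyxin (*Zyx*) by 0.47, paxillin (*Pxn*) by 0.39, *Src* by 0.35 and vinculin (*Vcl*, with 25.5% of exon bases shared with an opposite-strand gene) by 0.28. The other called members rose by 0.09 (*Fermt2*) to 0.49 (*Tns2*).

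The actin and serum response factor list rose in 13 of 21 genes and fell in 2, with a median of 0.30, and the 2 decreases were lost with library totals alone and without VS-4718 replicate 2, and 1 was left without VS-4718 replicate 3 or DMSO replicate 3. *Myl9*, a myosin light chain gene, went from 1.27, 0.714 and 0.494 CPM to 2.74, 2.71 and 2.66 CPM (1.73 ± 0.245 SE, edgeR adjusted *P* = 3.02e-07). At this low level its log2 fold change ranged from 0.48 to 2.13 over the alternatives. *Filip1l* and *Cnn2* rose by 0.63 and 0.62, and *Flna* and *Myh9*, filamin A and a nonmuscle myosin heavy chain, by 0.48 and 0.51. The smooth muscle gene *Tagln* (0.92, edgeR adjusted *P* = 0.0822) did not pass, was at most 0.830 CPM and shares 62.4% of its exon bases with another gene. A CArG box, the element bound by serum response factor, was in 8 of 24 upstream windows of the list (33.3%), *Myl9* and *Cnn2* among them, and in 1.47% of all RefSeq windows, in a list assembled from known targets of that factor.

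Among integrins and laminins, 14 of 23 genes were higher and 2 lower. *Itgb5* rose from 163, 165 and 170.2 CPM to 246, 237 and 230.2 CPM (0.52 ± 0.0321 SE, edgeR adjusted *P* = 2.9e-16), and *Itgb3* and *Lama4* by 0.83 and 0.82. *Itga6*, which encodes a laminin receptor chain, fell (log2 fold change −0.35). Of 19 collagen genes, 11 were higher and 2 lower. Type IV collagen genes of basement membranes, *Col4a1* and *Col4a2*, rose by 0.61 and 0.67, and *Col6a1* and *Col12a1* by 0.73 and 0.72, whereas *Col1a2* fell from 1337, 1362 and 1352 CPM to 1070.1, 1027 and 1069 CPM and *Col1a1* rose by 0.27. Both sets of type I collagen libraries were apart, in opposite directions. Of 21 proteases and inhibitors, 10 were higher and 3 lower (5 lower without VS-4718 replicate 1). *Adamts4* went from 38.8, 36.0 and 38.8 CPM to 83.9, 81.5 and 82.4 CPM and *Adamts5* from 14.5, 14.1 and 15.7 CPM to 31.8, 33.7 and 33.2 CPM, *Mmp17* rose by 1.19, and the inhibitor *Timp1* and the urokinase receptor *Plaur* fell (log2 fold changes −0.40 and −0.39).

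Transcripts that report ERK signaling were mostly lower. Of 24, 13 fell and 5 rose, with a median log2 fold change of −0.25. *Etv5*, an ETS factor induced by ERK, went from 58.8, 59.0 and 62.3 CPM to 27.1, 27.8 and 28.0 CPM (−1.12 ± 0.0483 SE, edgeR adjusted *P* = 3.76e-21). Its relative *Etv4* went from 102, 103 and 99.7 CPM to 50.0, 50.9 and 45.1 CPM (−1.06 ± 0.0425 SE, edgeR adjusted *P* = 3.25e-22). In both genes the libraries were apart, with no VS-4718 library above the lowest DMSO library. The ERK phosphatase genes *Dusp4*, *Dusp5* and *Dusp6* changed by −0.52, −0.56 and −0.24, and the feedback inhibitor *Spry4* by −0.63. The immediate early gene *Egr1* moved the other way, from 8.68, 8.50 and 10.2 CPM to 13.4, 12.4 and 13.6 CPM (0.52 ± 0.0818 SE, edgeR adjusted *P* = 1.77e-06), as did *Phlda1* (0.31) and *Dusp7* (0.31). *Spry2* (−0.12) and *Fos* (−0.17) did not pass.

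NF2 acts through the Hippo pathway, and a list of YAP and TEAD target genes together with members of the pathway itself (*Yap1*, *Wwtr1* and the *Tead* genes among them) split, with 8 higher and 9 lower of 28 and a median of −0.020. *Ankrd1*, a much used target gene, fell from 182, 174 and 179 CPM to 109, 119.9 and 122 CPM (−0.61 ± 0.0364 SE, edgeR adjusted *P* = 9.52e-17), with all VS-4718 libraries below all DMSO libraries. *Ctgf* (−0.19, edgeR adjusted *P* = 0.102) did not pass, and *Cyr61* changed by −0.08. *Crim1*, *Ajuba* and *Amotl2* rose by 0.62, 0.56 and 0.46. Either strand was searched for each element. The TEAD motif GGAATG was in 12 of 27 windows of these genes (44.4%), those of *Ankrd1*, *Crim1*, *Ajuba* and *Amotl2* among them, and in 12.6% of all windows, so that windows with it belonged to genes that moved either way. The AP-1 element TGANTCA was in 1 of these 27 windows (3.7%) and in 6.75% of all windows.

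In the PI3K and FOXO list 15 of 25 genes were higher and 4 lower, with a median of 0.20. *Pik3ip1*, a PI3K inhibitor, rose from 4.43, 4.25 and 4.86 CPM to 7.01, 8.12 and 7.18 CPM (0.72 ± 0.0924 SE, edgeR adjusted *P* = 4.31e-08). *Fbxo32* and *Sesn3*, targets of FOXO factors, rose by 0.61 and 0.59, and *Insr* and *Irs1* by 0.36 and 0.33. *Ccng2* and *Arrdc3* fell (log2 fold changes −0.51 and −0.46).

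Cholesterol synthesis genes were lower in 18 of 24 cases and higher in 3, with a median of −0.27, and with library totals alone 15 were lower and 5 higher. *Insig1*, a sensor of sterol supply that is itself a sterol-regulated gene, went from 126, 125 and 126 CPM to 78.6, 79.2 and 80.9 CPM (−0.66 ± 0.0340 SE, edgeR adjusted *P* = 1.16e-18). The 3 libraries of a treatment differed little and the treatments did not overlap. *Lss* and *Msmo1*, late enzymes of the pathway, fell (log2 fold changes −0.52 and −0.50). *Ebp* rose slightly, by 0.15. The sterol element TCACNCCAC was found in 1 of 20 windows (5%), that of *Hmgcs1*, and in 1.05% of all windows.

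Cell cycle genes moved by small amounts. Of 37 genes of G1 and DNA replication, 22 were lower and 4 higher (median −0.096), and with library totals alone 14 were lower and 7 higher; 1 or 2 were higher without VS-4718 replicate 2 or 3 or any 1 DMSO replicate. *Ccnd1*, cyclin D1, fell from 613, 599 and 617 CPM to 427, 429.6 and 432 CPM (−0.51 ± 0.0294 SE, edgeR adjusted *P* = 4.06e-17), with 23.4% of its exon bases shared with a gene on the opposite strand. *Rrm2* and *E2f1* fell (log2 fold changes −0.42 and −0.37), whereas *Pcna* rose by 0.11. Of 35 mitotic genes, 17 were lower and 2 higher (median −0.090), with 14 lower and 4 higher under library totals and 1 higher without any 1 library other than VS-4718 replicate 2. *Mki67* went from 672, 677 and 648 CPM to 558, 575 and 612 CPM (−0.19 ± 0.0361 SE, edgeR adjusted *P* = 2.92e-05), and *Cdc25b*, *Bub1* and *Cenpa* had log2 fold changes of −0.25, −0.25 and −0.25. The CDK inhibitor gene *Cdkn1a* (p21) fell from 15.7, 16.6 and 15.7 CPM to 7.28, 8.87 and 7.86 CPM (−1.0 ± 0.0877 SE, edgeR adjusted *P* = 3.7e-12), and *Gadd45a*, with 19.1% of its exon bases shared with another gene, fell (log2 fold change −0.48). Among other p53 target genes, *Trp53inp1* rose by 0.72, *Btg2* by 0.44 and *Bax* by 0.36. In the cell death list the BH3-only gene *Bmf* rose from 3.66, 4.17 and 3.87 CPM to 8.23, 9.65 and 9.87 CPM (1.24 ± 0.115 SE, edgeR adjusted *P* = 1.93e-11), *Bok* by 0.89 and *Bcl2l11* (BIM) by 0.24, and *Casp8* fell (log2 fold change −0.18).

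Guidance receptors were mainly higher. Of 28 semaphorin and plexin genes, 15 rose and 3 fell, and of 14 Eph receptor and ephrin genes, 9 rose and 1 fell, a call lost in 9 of 12 alternatives (among them DESeq2, limma-trend, library totals alone and leaving out any 1 library other than DMSO replicate 3). *Plxnb1* and *Nrp1* rose by 0.65 and 0.50, and *Ephb6*, *Efnb1* and *Efnb3* by 0.83, 0.40 and 0.42, whereas *Sema6b* fell (log2 fold change −0.51). Other receptor tyrosine kinase genes included *Pdgfrb*, which went from 21.4, 25.7 and 22.5 CPM to 37.3, 38.5 and 35.2 CPM (0.67 ± 0.0601 SE, edgeR adjusted *P* = 8.82e-12), the collagen receptor *Ddr1* (0.67) and *Fgfr1* (0.50), all higher, and *Mertk* (−0.24), lower. In the HGF and MET list, with 4 higher and 3 lower of 9, the plexin gene *Plxnb3* rose from 1.94, 1.20 and 0.948 CPM to 4.15, 4.59 and 4.03 CPM (1.65 ± 0.172 SE, edgeR adjusted *P* = 3.45e-10) and *Gab1* by 0.46, *Met* itself fell from 239, 232 and 241 CPM to 194, 203 and 201 CPM (−0.25 ± 0.0324 SE, edgeR adjusted *P* = 4.22e-08), and *Cd44*, a MET coreceptor, fell from 342, 339 and 344 CPM to 245, 253 and 263 CPM (−0.43 ± 0.0360 SE, edgeR adjusted *P* = 1.38e-12). The log2 fold change of *Plxnb3*, a gene of low level, ranged from 0.63 to 1.96 over the alternatives. *Hgf*, *Spint1*, *Nlrp3*, *Il6*, *Cxcl3* and *Ptk2b* had too few counts to be tested.

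Inflammatory lists were higher in 8 of 25 genes and lower in 1 (NF-κB list) and higher in 8 of 24 and lower in 1 (interferon list). Without VS-4718 replicate 1 the interferon list had 5 higher genes, and the 1 lower gene was not called without VS-4718 replicate 2 or 3 or without DMSO replicate 2 or 3, nor with library totals alone or limma-trend. *Ccl2* went from 27.1, 26.2 and 27.9 CPM to 35.2, 36.1 and 36.6 CPM (0.41 ± 0.0556 SE, edgeR adjusted *P* = 1.08e-07), *Cxcl5* and *Nfkbia* rose by 0.39 and 0.36, and *Nfkb2* fell (log2 fold change −0.25). The interferon-inducible *Parp14* and *Gbp3* rose by 0.77 and 0.79 from low levels. In the TGF-β and BMP list 12 of 28 were higher and 2 lower (1 lower without VS-4718 replicate 1 or 2 or DMSO replicate 2 and with library totals alone). *Id3*, *Tgfb1* and *Id2* rose by 0.67, 0.65 and 0.63.

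Other genes were among the 12 largest changes in each direction without belonging to these lists. *Synpo*, which encodes the actin-binding protein synaptopodin, went from 15.9, 16.3 and 16.5 CPM to 44.2, 41.9 and 39.5 CPM (1.36 ± 0.0555 SE, edgeR adjusted *P* = 4.85e-22). The histone variant gene *H2afx* went from 60.5, 63.6 and 66.5 CPM to 156, 145 and 138 CPM (1.20 ± 0.0452 SE, edgeR adjusted *P* = 4.57e-23). *Notch1* went from 14.0, 13.0 and 14.0 CPM to 33.2, 34.1 and 34.6 CPM (1.31 ± 0.0670 SE, edgeR adjusted *P* = 8.86e-19). No DMSO library reached the lowest VS-4718 library in these 3 genes, which the rule for the 12 largest changes required. The MYC antagonist *Mxd4*, the aldehyde dehydrogenase *Aldh3a1*, the matrix genes *Prelp* and *Igfbp7* and the linker histone *Hist1h1c* rose by 1.36, 1.33, 1.28, 1.16 and 1.23. Among decreases, the nuclear long noncoding RNA *Neat1* went from 1143, 1161 and 1175 CPM to 448, 473 and 451 CPM (−1.34 ± 0.0326 SE, edgeR adjusted *P* = 5.02e-29). *Herpud1*, whose upstream sequence is given above, went from 38.9, 36.1 and 38.0 CPM to 15.4, 13.9 and 15.4 CPM (−1.34 ± 0.0541 SE, edgeR adjusted *P* = 4.55e-22), and the circadian repressor *Ciart* fell (log2 fold change −1.34). *Hist1h2af* fell (log2 fold change −1.35), which is uncertain because near-identical histone genes can share reads.

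VS-4718 was then set against each of the other kinase inhibitors at the same dose and time, 3 pairs in all, each in the same model with adjustment over 16070 genes. Against defactinib, 5460 genes differed (34.0%), 18.0% being higher and 16.0% lower with VS-4718. Against GSK2256098 the number was 4355 (27.1%; 14.3% higher and 12.8% lower), and with library totals alone 2849 were higher and 1669 lower in place of 2299 and 2056. Against ifebemtinib it was 6567 (40.9%; 21.3% higher and 19.6% lower). Among differences of at least 2-fold the balance was toward lower levels with VS-4718, with 56 higher and 127 lower than with defactinib, 49 and 93 for GSK2256098 and 147 and 245 for ifebemtinib. Libraries did not overlap in 42.1%, 38.4% and 47.2% of the genes tested against defactinib, GSK2256098 and ifebemtinib. The inhibitors share the DMSO libraries, so levels and each inhibitor's own comparison are given side by side.

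The ATF4 genes separated VS-4718 from all 3 others. Of the 28 genes, 25 were lower with VS-4718 than with defactinib, 23 lower than with GSK2256098 and 27 lower than with ifebemtinib, and 0 were higher in any pair. Against DMSO the same list had 26 lower with VS-4718, 9 lower and 11 higher with defactinib (background 11.0% and 11.4%), 25 lower and 0 higher with GSK2256098 (background 6.09% and 6.36%) and 2 lower and 16 higher with ifebemtinib (background 6.85% and 6.44%), with medians of −0.76, 0.047, −0.39 and 0.22. *Slc7a11* was at 39.8, 40.4 and 39.7 CPM with defactinib, 14.6, 12.8 and 14.9 CPM with GSK2256098 and 34.9, 36.9 and 37.6 CPM with ifebemtinib, against 4.95, 5.24 and 5.39 CPM with VS-4718. Among annotated genes of at least 5 CPM with no overlap it was the largest decrease relative to defactinib (log2 difference −2.94 ± 0.0686 SE, edgeR adjusted *P* = 1.18e-29). *Chac1* was at 16.4, 20.1 and 17.8 CPM, 11.6, 11.4 and 11.8 CPM and 38.2, 35.5 and 37.5 CPM in the same order, and among annotated genes of at least 5 CPM with no overlap it was the largest decrease relative to GSK2256098 (−1.81 ± 0.106 SE, edgeR adjusted *P* = 2.56e-16) and to ifebemtinib (−3.49 ± 0.0886 SE, edgeR adjusted *P* = 5.42e-29). The order of the mean levels of *Chac1* was VS-4718, GSK2256098, defactinib, DMSO and ifebemtinib from low to high, with no overlap between neighbors. *Pck2*, mitochondrial phosphoenolpyruvate carboxykinase, was at 45.5, 41.4 and 44.1 CPM with VS-4718 and 144, 146 and 148 CPM with defactinib (−1.74 ± 0.0368 SE, edgeR adjusted *P* = 6.03e-31).

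**Figure D4:**
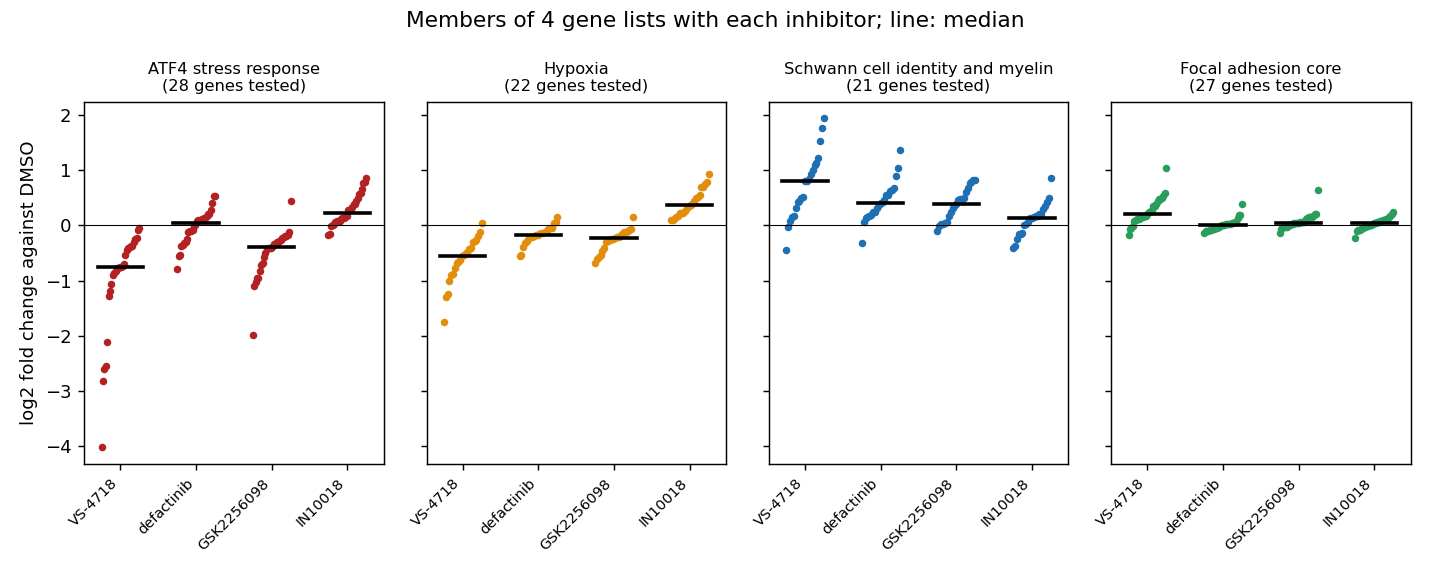
Each point is the log2 fold change of 1 tested list member against DMSO with VS-4718, defactinib, GSK2256098 or ifebemtinib (IN10018), sorted within a column, and the black line is the median. The inhibitors share the DMSO libraries; the ATF4 medians are −0.76, 0.047, −0.39 and 0.22 and the hypoxia medians −0.55, −0.17, −0.23 and 0.36 in that order.

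Hypoxia genes followed a like order. Of 22, 20 were lower with VS-4718 than with defactinib, 18 lower than with GSK2256098 and 22 lower than with ifebemtinib. *Bnip3* was at 40.5, 41.3 and 40.0 CPM with VS-4718, 77.3, 76.3 and 73.8 CPM with defactinib, 71.8, 72.8 and 72.1 CPM with GSK2256098 and 164, 158 and 162 CPM with ifebemtinib. Its level was thus below that of DMSO with 3 inhibitors and above it with ifebemtinib, and the difference between VS-4718 and ifebemtinib was −1.99 ± 0.0402 SE on the log2 scale (edgeR adjusted *P* = 3.81e-32). Against DMSO, 21 of 22 hypoxia genes were higher and 0 lower with ifebemtinib, 14 lower and 1 higher with defactinib, and 18 lower and 0 higher with GSK2256098.

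Schwann cell genes were higher with VS-4718 than with the others in 9 (defactinib), 11 (GSK2256098) and 16 (ifebemtinib) of 21 cases and lower in 2, 1 and 1. Against DMSO, 12 of 21 were higher with defactinib, 12 with GSK2256098 and 4 with ifebemtinib, beside 15 with VS-4718. *Ngfr* was at 37.5, 36.2 and 32.4 CPM with VS-4718, 16.1, 16.4 and 16.6 CPM with defactinib, 17.5, 17.9 and 18.2 CPM with GSK2256098 and 9.65, 8.66 and 10.2 CPM with ifebemtinib. Its differences from VS-4718 were 1.11 ± 0.0632, 0.98 ± 0.0625 and 1.90 ± 0.0707 SE (edgeR adjusted *P* = 3.3e-17, 2.7e-15 and 2.04e-23). Every library of the other inhibitors lay below every VS-4718 library. *Erbb3* differed by 0.50, 0.75 and 1.40 in the same order, and all 3 differences passed the threshold.

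Focal adhesion and actin genes also separated VS-4718 from the other inhibitors. In the focal adhesion core list 22, 19 and 20 of 27 genes were higher with VS-4718 than with defactinib, GSK2256098 and ifebemtinib, whereas 2, 7 and 3 were higher with those inhibitors than with DMSO. In the actin and serum response factor list 16, 12 and 13 of 21 genes were higher with VS-4718 in the same order. Against DMSO, 3 of these 21 were higher and 6 lower with defactinib, 9 higher and 0 lower with GSK2256098, and 3 higher and 1 lower with ifebemtinib. The shares higher over all genes were 11.4%, 6.36% and 6.44%, so that part of the list also rose with GSK2256098. *Tns1* was at 55.7, 55.0 and 59.4 CPM with defactinib, 66.9, 68.0 and 66.8 CPM with GSK2256098 and 48.0, 48.2 and 50.3 CPM with ifebemtinib, all below the lowest VS-4718 library. Among annotated genes of at least 5 CPM with no overlap, *H2afx* was the largest increase relative to defactinib (1.18 ± 0.0452 SE, edgeR adjusted *P* = 1.51e-22) and GSK2256098 (1.07 ± 0.0450 SE, edgeR adjusted *P* = 1.03e-20), at 62.1, 66.0 and 66.3 CPM and 70.4, 70.4 and 68.1 CPM there. *Synpo* and *Gal3st1*, the latter an enzyme of sulfatide synthesis, were higher than with defactinib by 1.08 and 0.99, and *Notch1* and *Pcdh10*, a protocadherin, higher than with ifebemtinib by 1.47 and 1.42. ERK output genes were lower with VS-4718 in 11, 11 and 16 of 24 cases and higher in 5, 5 and 4. *Etv5* was at 60.7, 57.0 and 63.9 CPM, 56.5, 55.6 and 55.0 CPM and 68.9, 65.0 and 64.5 CPM with the 3 others, more than every VS-4718 library.

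In guidance, integrin and laminin genes the direct comparisons differed between inhibitors. Of 14 Eph receptor and ephrin genes, 1 was higher and 2 lower than with defactinib, 0 of 14 passed the threshold in either direction against GSK2256098, and 9 were higher and 1 lower than with ifebemtinib. Their median differences were −0.0068, 0.0033 and 0.29 on the log2 scale in that order. For *Efnb1*, the difference from GSK2256098 was −0.03 with a 95% interval of −0.20 to 0.15. The unadjusted 95% intervals of 3 genes left out 0, those of *Efna2* (−0.50, from −0.95 to −0.051), *Efna3* (−0.42, from −0.78 to −0.064) and *Epha7* (0.21, from 0.045 to 0.37), so missing the threshold does not show that the inhibitors act alike. Semaphorin and plexin genes were higher than with defactinib in 8 and lower in 10 of 28 cases, higher than with GSK2256098 in 10 and lower in 4, and higher than with ifebemtinib in 17 and lower in 2. Integrin and laminin genes were higher than with defactinib in 3 and lower in 6 of 23 cases, higher than with GSK2256098 in 6 and lower in 2, and higher than with ifebemtinib in 15 and lower in 3. Over all genes, 18.0% were higher and 16.0% lower than with defactinib. Against DMSO, defactinib had 16 integrin and laminin, 9 Eph and ephrin and 15 semaphorin and plexin genes higher, beside 14, 9 and 15 with VS-4718. GSK2256098 had 7, 7 and 8 higher and ifebemtinib 0, 1 and 1. The increases in these lists were thus not particular to VS-4718. Cholesterol genes were lower with VS-4718 than with defactinib, GSK2256098 and ifebemtinib in 15, 17 and 16 of 24 cases and higher in 0, 0 and 4.

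**Figure D5:**
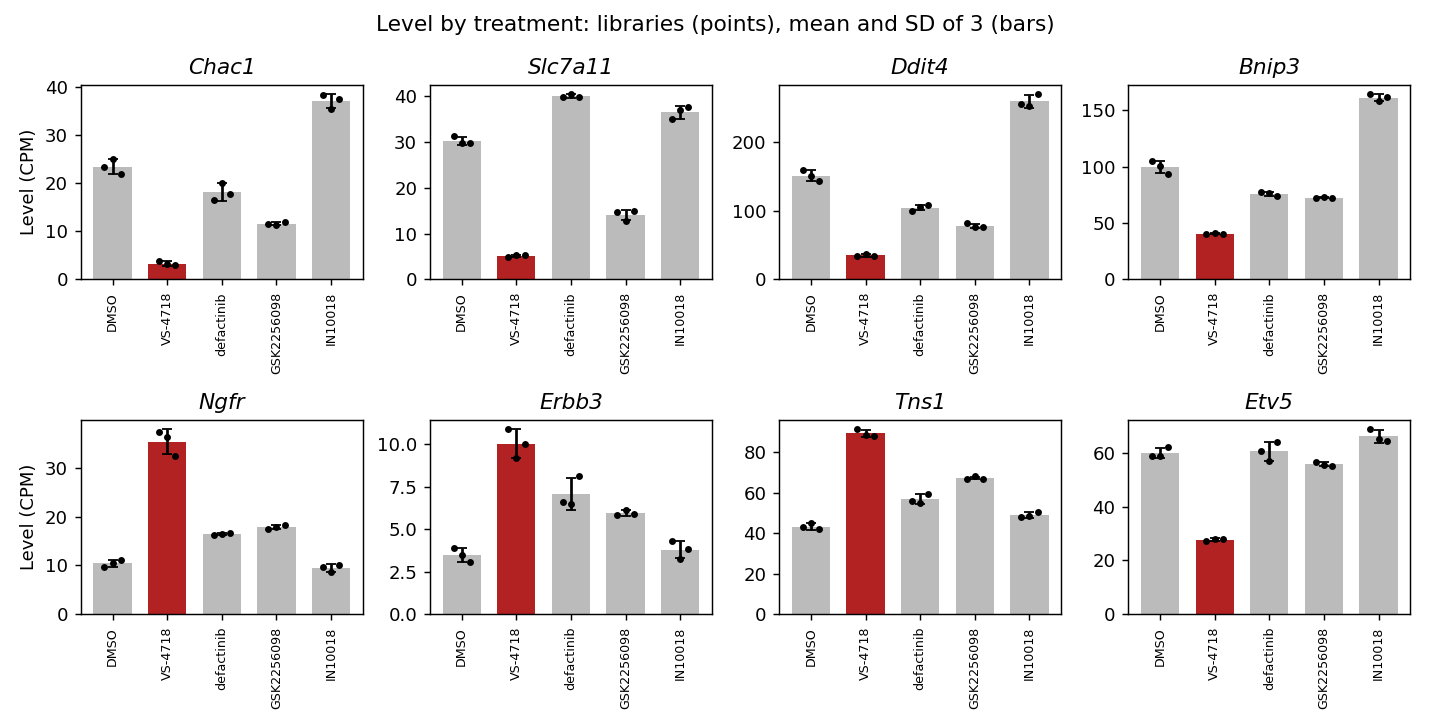
Bars give the mean level in CPM with the SD of 3 libraries and points give each library, for DMSO, VS-4718 (red), defactinib, GSK2256098 and ifebemtinib (IN10018), on axes that start at 0. VS-4718 has the lowest level of *Chac1*, *Slc7a11*, *Ddit4*, *Bnip3* and *Etv5* and the highest of *Ngfr*, *Erbb3* and *Tns1*.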

How the data were processed

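RNA of MS03 cells was sequenced in 24 libraries (8 treatments with 3 replicates), and the authors deposited 1 table of raw read counts for 49315 genes. The submitters' processing notes name Trimmomatic 0.36, STAR 2.5.2b, Subread 1.5.2 with featureCounts, and GRCm38; the strand setting and annotation release are not given in the sources used here, so reads of overlapping genes on opposite strands could not be told apart. Columns were matched to samples by library name. Counts were fitted with edgeR 4.0.16 in R 4.3.3 (TMM scaling, filterByExpr, quasi-likelihood F test, two-sided) on all 24 libraries with 1 mean per treatment, which gave 16 residual degrees of freedom, and contrasts were adjusted by Benjamini-Hochberg over the 16070 genes tested, with a threshold of 0.05. The spread among all treatments enters each test. For a single gene, 3 against 3 libraries cannot reach an exact two-sided permutation p under 0.1, so only model *P* values are given. With 22952048 to 27449516 counts per library in the comparison with DMSO, 1 CPM is over 20 reads; counting intervals cover counting error only.

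The gene lists, the named genes and the comparison itself were chosen with earlier results of these data known. Named genes were the 12 largest called changes in each direction with a mean of at least 5 CPM and no overlap, the 3 largest called changes in each direction of each list with at least 1 CPM, the 4 largest in each direction between inhibitors with at least 5 CPM and no overlap, and genes the study measured; other members are named for their role and were chosen after their values were seen. Gene positions are from GENCODE M21 (16019 of 16070 tested genes found) and upstream windows from RefSeq on GRCm38.p6, cut to the 250 bases before the start. Alternatives were DESeq2 1.42.0, limma-trend (limma 3.58.1) on log2(CPM + 4), library totals, no filter, fewer libraries, a replicate block, a 2-fold minimum and leaving out each replicate. Where 12 alternatives are counted, the 2-fold minimum is not among them. The tests were tested on simulated data. Values of some list members are not reported here.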

Additional observations from a re-analysis of the deposited data

How the results depend on the processing

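The number of genes that differed between VS-4718 and DMSO, 6303, was 5824 with DESeq2, 5939 with limma-trend, 5814 without a filter and 6201 with the 6 libraries alone. A 2-fold minimum left 331 genes for DMSO, 183 for defactinib, 142 for GSK2256098 and 392 for IN10018. Leaving out 1 replicate gave 5352 to 5945 genes for DMSO, 4517 to 5175 for defactinib, 3502 to 4061 for GSK2256098 and 5745 to 6100 for IN10018, and without DMSO replicate 2, the library with small RNAs, it gave 5450. Library totals alone moved the median log2 fold change over the genes tested from 0.0048 to 0.043 and the share of higher calls from 51.9% to 62.6% for DMSO and from 52.8% to 63.1% for GSK2256098. The replicate numbers did not pair the samples: correlations of same-numbered deviations were −0.014, −0.0137 and −0.00149 for DMSO, −0.0437, −0.0138 and −0.0409 for defactinib, −0.0772, −0.0522 and 0.0318 for GSK2256098 and 0.0399, 0.104 and 0.00534 for IN10018, and a replicate block gave 6263, 5399, 4266 and 6473 calls in the 4 comparisons. Of 1992 values of 166 named-gene results under 12 alternatives, the 2-fold minimum not among them, 1903 kept direction and call, 88 lost the call, 1 gained it (*Nf2* with library totals) and 0 turned sign. Of 576 counts of called genes in the lists under the same 12 alternatives, 49 moved by over 1.5 times.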

Other observations

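The gene groups in this paragraph were chosen after their values were seen and received no test as groups. Over all genes tested, 20.4% were higher and 18.9% lower with VS-4718 than with DMSO. Cytosolic ribosomal protein genes were lower with VS-4718 in 69 of 80 tested and higher in 0, with a median log2 fold change of −0.32, and 66 to 72 were lower over the 12 alternatives without the 2-fold minimum. Against DMSO, 69 were also lower with defactinib and 29 with GSK2256098, whereas 17 were higher and 0 lower with ifebemtinib. Cytosolic aminoacyl-tRNA synthetases, which charge transfer RNAs, were lower in 17 of 20 and higher in 1 (0 without VS-4718 replicate 1 or 2 or DMSO replicate 2 or 3), with a median of −0.36, and *Cars*, *Nars* and *Mars* changed by −0.63, −0.53 and −0.53. Relative to DMSO, 4 were lower and 8 higher with defactinib, 12 lower and 0 higher with GSK2256098, and 0 lower and 4 higher with ifebemtinib. The mitochondrial synthetases were lower in 8 of 17 and higher in 2 (1 without VS-4718 replicate 1 or 3 or DMSO replicate 1 or 3). Of 19 clock genes, 10 were lower and 3 higher. The repressors *Bhlhe40* (−1.75), *Ciart* (−1.34), *Bhlhe41* (−1.0) and *Nfil3* (−0.70) were lower, whereas *Per3* (0.51) and *Tef* (0.35) were higher. Glycolytic enzyme genes were lower in 9 of 13 cases and higher in 1 (0 without DMSO replicate 2 or 3), with *Eno2* at −1.09 and *Gapdh* at −0.51. Defactinib and GSK2256098 had 9 and 7 of them lower than DMSO, and ifebemtinib had 10 higher. Of 37 proteasome subunit genes, 17 were lower and 3 higher, but 11 were lower and 5 higher with library totals alone, and 1 was higher without VS-4718 replicate 1 or any 1 DMSO replicate. More of them, 30, were lower than DMSO with defactinib, beside 11 with GSK2256098 and 1 with ifebemtinib. Vacuolar ATPase subunits were higher in 8 and lower in 4 of 19, the largest decrease being *Atp6v0a4* (−1.25). Notch pathway genes were near the shares over all genes, with 5 higher and 3 lower of 18. Among them, *Notch2* (0.42) and *Hes1* (−0.41) moved in opposite directions. Replication-dependent histone genes, whose mRNAs mostly lack a poly(A) tail, were higher in 6 and lower in 2 of 49 (1 lower without DMSO replicate 2 or 3), below the shares over all genes in both directions.

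Some genes of low level stood out and were likewise chosen after their values were seen. *Soat2*, a cholesterol acyltransferase gene, was at 3.03, 2.63 and 2.76 CPM with DMSO and 0.229, 0.131 and 0.228 CPM with VS-4718 (log2 fold change −3.78 ± 0.257 SE, edgeR adjusted *P* = 3.85e-15), and its means were 0.810 ± 0.0961 CPM (SD, n = 3) with defactinib, 1.42 ± 0.330 CPM with GSK2256098 and 3.26 ± 0.357 CPM with ifebemtinib. The aryl hydrocarbon receptor targets *Cyp1b1* and *Cyp1a1* went from 0.226, 0.150 and 0.453 CPM to 1.52, 1.44 and 1.75 CPM (2.5 ± 0.303 SE, edgeR adjusted *P* = 1.17e-08) and from 0.407, 0.451 and 0.453 CPM to 1.60, 1.22 and 1.63 CPM (1.75 ± 0.260 SE, edgeR adjusted *P* = 6.96e-07). *Nqo1* rose by 0.57 (edgeR adjusted *P* = 0.0123), whereas *Tiparp*, another target of that receptor, was lower (−0.15) and *Ahrr* did not pass (0.23, edgeR adjusted *P* = 0.305). *Cth* and *Gpt2*, enzymes of cysteine and alanine metabolism, were lower by log2 fold changes of −1.11 and −1.06. The interferon-inducible *Mx1* had 2 counts over the DMSO libraries and 14 over the VS-4718 libraries, a ratio of 6.77 with an exact 95% Poisson interval of 1.55 to 61.4.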
